A study of Mus musculus with 20 samples.

Results

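The genes described here are 8 genes of cholesterol synthesis, measured on 20 Affymetrix arrays of mouse CD44+CD8+ T cells. Hmgcs1, Idi1, Fdps, Fdft1, Sqle, Lss and Cyp51 encode enzymes of the pathway, and Insig1 encodes a protein of the endoplasmic reticulum that holds the pathway back when sterol is plentiful. They were taken as a list of gene names, drawn up with earlier results of these data known, and make up 8 of the 17097 genes measured. Each gene is represented by 1 probe set that is listed with its symbol alone, and where a gene had several, by the one with the highest mean over all arrays. These are 1441536_PM_at for Hmgcs1, 1451122_PM_at for Idi1, 1423418_PM_at for Fdps, 1448130_PM_at for Fdft1, 1415993_PM_at for Sqle, 1426913_PM_at for Lss, 1450646_PM_at for Cyp51 and 1454671_PM_at for Insig1.

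The cells were purified from lungs bearing 4T1 tumours, a mouse mammary carcinoma line, after intranasal treatment. The treatments were SD-101+anti-PD-1+a-CD4 (4 arrays), SD-101+anti-PD-1 (5 arrays), SD-101 (6 arrays) and Saline-CTRL (5 arrays). SD-101 binds TLR9, which senses unmethylated DNA in endosomes. PD-1 is a receptor that restrains T cells, and anti-PD-1 blocks it. Of a-CD4 the labels give the name only, and they state no strain, age, sex, dose or time. All 4 groups carried tumours, and no tumour-free lung is among them. Nothing in the labels ties the replicates to separate mice. The p-values therefore weigh differences against the spread of these samples only, which may be technical.

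The values are log2 expression values as the authors deposited them, from 1.78 to 13.44 over all probe sets, and array medians lay between 3.52 and 3.75. The labelled cell type was checked against 9 measured T cell markers. The coreceptor genes Cd8a and Cd8b1 averaged 10.80 and 11.01 over the 20 arrays and Cd44 averaged 9.66, while Cd4 averaged 3.13 and did not exceed 3.51 on any array. Transcripts of other lung cells were also present. Sftpc, the surfactant protein C gene of alveolar type 2 cells, lay between 12.53 and 13.44, the club cell gene Scgb1a1 averaged 11.63, and the collagen gene Col3a1 averaged 11.45. Each was the brightest measured marker of its cell type, and others were dimmer. A mean of at least 5 was reached by 6 of 7 alveolar epithelial, 7 of 7 airway epithelial and 4 of 6 fibroblast markers. Napsa of the alveolar markers averaged 4.66 and Col1a2 of the fibroblast markers 2.97. In RNA from a population, fewer cells of a type and less RNA per cell cannot be told apart, and this applies to every level given here.

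Cholesterol is built from acetyl-CoA through mevalonate, isoprenoids, squalene and lanosterol. When sterol in the endoplasmic reticulum is low, the complex of SCAP and the transcription factor SREBP2 is released from INSIG proteins, and SREBP2 is cleaved in the Golgi. The cleaved factor raises transcription of nearly all enzymes of the route, and of Insig1 itself. T cells are known to raise this program when they are activated and divide, and epithelial cells and many carcinoma lines also run it.

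SREBP2 binds sterol regulatory elements, often beside a CCAAT box bound by NF-Y. The promoters of the genes were read from RefSeq, build GRCm38.p6, as 250 bases before to 50 after each start, and 5 of the 8 genes were matched. Those of the enzyme whose probe set had the only called differences, of an isoprenoid enzyme, and of the sterol enzyme with the largest difference between group means follow, 5′ to 3′ on the strand of the gene. They lie at chr13:119690101-119690400 on the plus strand for Hmgcs1, chr13:8885356-8885655 on the plus strand for Idi1 and chr5:4104648-4104947 on the minus strand for Cyp51. Capitals mark CCAAT on either strand (ATTGG where it lies on the other strand) and, in Hmgcs1, a match to a sterol regulatory element-like motif.
Hmgcs1: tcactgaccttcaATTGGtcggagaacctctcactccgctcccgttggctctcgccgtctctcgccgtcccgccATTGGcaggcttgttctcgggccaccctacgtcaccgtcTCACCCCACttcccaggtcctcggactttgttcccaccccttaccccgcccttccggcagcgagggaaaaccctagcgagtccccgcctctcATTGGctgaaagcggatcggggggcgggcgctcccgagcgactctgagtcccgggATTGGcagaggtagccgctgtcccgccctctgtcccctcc
Idi1: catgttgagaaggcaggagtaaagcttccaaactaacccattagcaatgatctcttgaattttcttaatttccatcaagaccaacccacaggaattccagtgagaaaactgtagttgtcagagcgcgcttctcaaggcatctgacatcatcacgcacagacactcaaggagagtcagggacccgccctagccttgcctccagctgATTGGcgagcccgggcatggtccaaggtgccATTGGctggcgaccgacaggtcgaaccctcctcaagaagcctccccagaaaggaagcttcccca
Cyp51: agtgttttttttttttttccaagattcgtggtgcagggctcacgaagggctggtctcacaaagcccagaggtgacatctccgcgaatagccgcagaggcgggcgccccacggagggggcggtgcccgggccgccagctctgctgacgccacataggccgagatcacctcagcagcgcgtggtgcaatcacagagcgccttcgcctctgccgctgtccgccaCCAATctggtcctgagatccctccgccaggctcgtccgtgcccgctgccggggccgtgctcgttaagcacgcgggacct
The motif searched was TCACNCCAC on both strands, and it matched 1 of the 5 promoters, that of Hmgcs1, as TCACCCCAC starting at position -137, with the start as 0. It was present in 1.24% of all 32851 promoters of this length. CCAAT matched all 5 promoters, those of Lss and Insig1 included, and 37.4% of all promoters, and both motifs stood together in 0.441%. No match of one motif overlapped a match of the other. A match describes these letters in this window and shows no binding.

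Hmgcs1, the synthase that makes HMG-CoA ahead of the mevalonate step, was the only gene of the 8 whose probe set passed the test in any comparison, and its value was lower after combined treatment. The signal of this probe set was not shown to lie above background. Its mean of 2.96 over the 20 arrays was below the median of every array and below that of Cd4, at 3.13, so the differences are those of a dim probe set and may not be those of the transcript. It measured 2.57, 2.38, 2.71 and 2.66 on the SD-101+anti-PD-1+a-CD4 arrays and 2.86, 2.66, 2.51, 2.93 and 3.07 on the SD-101+anti-PD-1 arrays. On the SD-101 arrays the lowest, median and highest values were 2.76, 3.02 and 3.32, and the Saline-CTRL arrays measured 3.21, 3.71, 3.44, 3.004 and 3.25. All SD-101+anti-PD-1+a-CD4 arrays lay below all SD-101 and all Saline-CTRL arrays, and the SD-101+anti-PD-1 arrays overlapped every other group.

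The value of the Hmgcs1 probe set fell by 0.74 on the log2 scale (SE 0.14) under SD-101+anti-PD-1+a-CD4 against Saline-CTRL, with a limma adjusted p of 0.00396. The exact permutation test of those 2 groups gave 0.00794, the smallest p that 4 and 5 arrays allow. Among all genes, 3.03% were called lower in that comparison and 3.32% had groups that did not overlap in that direction. It also fell by 0.52 (SE 0.13) under SD-101+anti-PD-1 against Saline-CTRL, with a limma adjusted p of 0.0283 and an exact permutation p of 0.0159, and there 2.15% of all genes were called lower. The moderated F test over the 4 groups gave an adjusted p of 0.0102, and it called 8.85% of all genes. Its log2 fold change under SD-101+anti-PD-1+a-CD4 against SD-101 was -0.48 with a limma adjusted p of 0.0990, which is not a call, and 1.72% of all genes did not overlap in that direction. By group mean, SD-101+anti-PD-1+a-CD4 came lowest at 2.58 ± 0.14 (SD, n = 4), then SD-101+anti-PD-1 at 2.80 ± 0.22 (SD, n = 5), SD-101 at 3.05 ± 0.20 (SD, n = 6) and Saline-CTRL at 3.32 ± 0.26 (SD, n = 5). No neighbours in that order differed past the threshold, with limma adjusted p between 0.325 and 0.610.

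No other probe set is listed with the symbol Hmgcs1 alone, and others of the gene may be among the 15692 not listed with a gene, which were not used here. The fall under SD-101+anti-PD-1 against Saline-CTRL lost its call when any 1 of 5 arrays was left out, with limma adjusted p of 0.0527, 0.0713 and 0.0897 without SD-101+anti-PD-1 replicates 1, 2 and 3, and 0.0518 and 0.0826 without Saline-CTRL replicates 2 and 3. The fall under SD-101+anti-PD-1+a-CD4 kept its call in all 9 such fits, at adjusted p of 0.00229 to 0.0150. Neither fall was called once marker means of 4 other cell types were covariates, with log2 fold changes of -0.98 (limma adjusted p = 0.119) under SD-101+anti-PD-1+a-CD4 and -1.02 (limma adjusted p = 0.480) under SD-101+anti-PD-1, and fitting only the 2 groups compared ended the call under SD-101+anti-PD-1 (limma adjusted p = 0.0846). That covariate fit called 4 and 0 of all genes in these comparisons. Without the covariates, 518 and 368 of all 17097 genes fell. All 8 measured endothelial markers then fell in both comparisons, with medians of -2.11 under SD-101+anti-PD-1+a-CD4 and -3.61 under SD-101+anti-PD-1. Their mean, 1 of the covariates, did not overlap Saline-CTRL in either, so that fit separates treatment from covariate poorly.

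**Figure D1:**
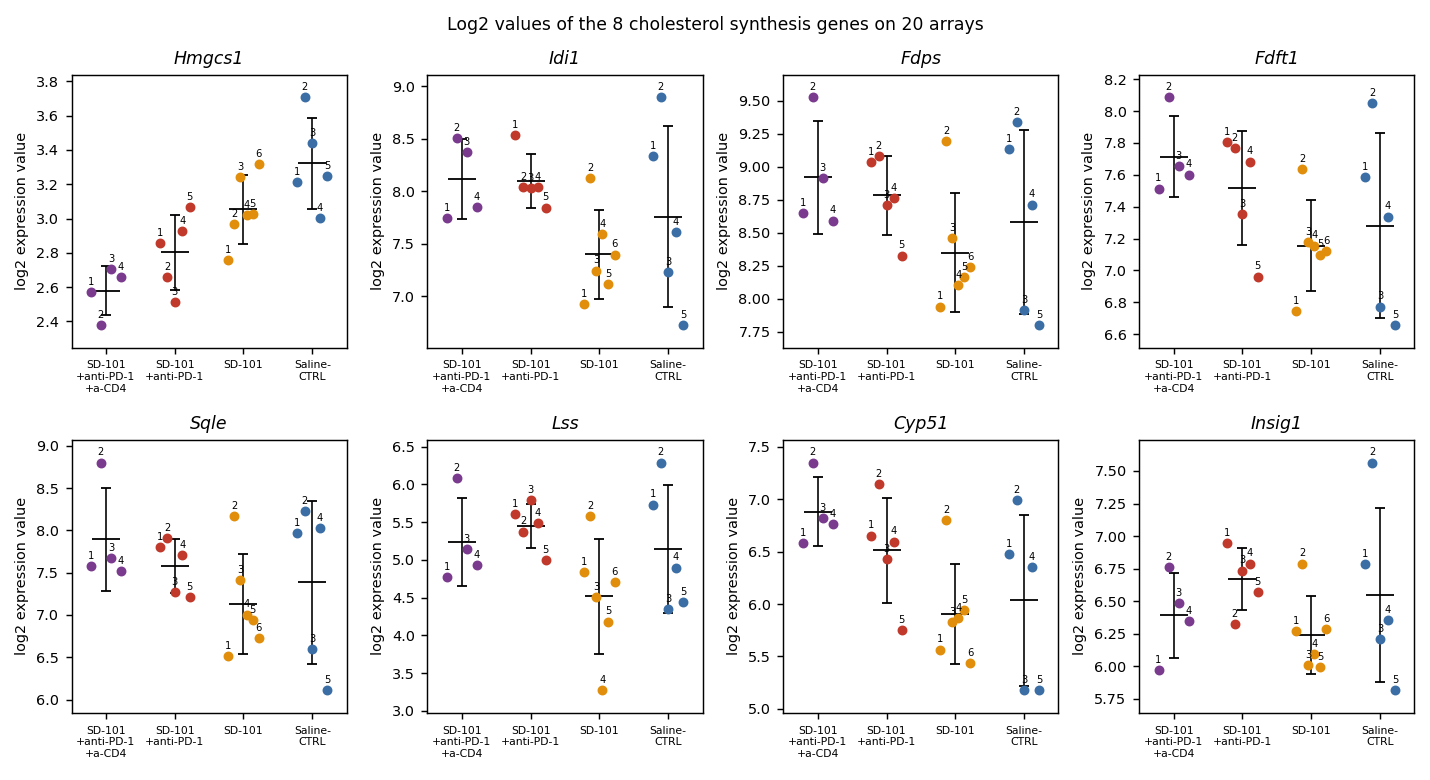
Log2 expression value (y axis) of each gene in the 4 groups (x axis). Each point is 1 array labelled with its replicate number, the horizontal bar is the group mean and the error bar is 1 SD. The Hmgcs1 probe set, the dimmest of the 8, averaged 2.58 under SD-101+anti-PD-1+a-CD4, while the Saline-CTRL arrays of the other genes spread over 1.39 to 2.17 log2 and overlap all treated groups.

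The isoprenoid enzymes showed wide overlap. Idi1, which converts isopentenyl diphosphate to dimethylallyl diphosphate, measured 7.74, 8.51, 8.37 and 7.85 under SD-101+anti-PD-1+a-CD4 and 8.53, 8.04, 8.03, 8.04 and 7.85 under SD-101+anti-PD-1. In SD-101 its lowest, median and highest values were 6.92, 7.32 and 8.12, and Saline-CTRL measured 8.33, 8.90, 7.23, 7.61 and 6.73. The Saline-CTRL arrays held both the highest and the lowest Idi1 value of the 20. SD-101 replicate 2 lay above 4 of the 5 SD-101+anti-PD-1 arrays, and the other SD-101 arrays lay below all 5. Idi1 was 0.70 higher under SD-101+anti-PD-1 than in SD-101 (95% interval 0.06 to 1.34), with a limma adjusted p of 0.220, so it was not called.

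Fdps makes farnesyl diphosphate, the last intermediate shared with protein prenylation and dolichol. It measured 8.65, 9.53, 8.91 and 8.59 under SD-101+anti-PD-1+a-CD4 and 9.03, 9.08, 8.71, 8.76 and 8.33 under SD-101+anti-PD-1. SD-101 had a lowest value of 7.94, a median of 8.20 and a highest of 9.20, against 9.14, 9.34, 7.91, 8.71 and 7.80 in Saline-CTRL. All groups overlapped, and each held an array above 9. Its largest difference between group means was 0.57 higher under SD-101+anti-PD-1+a-CD4 than in SD-101 (95% interval -0.06 to 1.20, limma adjusted p = 0.346).

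Fdft1, squalene synthase, takes the first step committed to sterols. It measured 7.51, 8.09, 7.66 and 7.60 under SD-101+anti-PD-1+a-CD4 and 7.81, 7.77, 7.35, 7.68 and 6.96 under SD-101+anti-PD-1. SD-101 ran from 6.75 through a median of 7.14 to 7.63, and Saline-CTRL measured 7.59, 8.05, 6.77, 7.34 and 6.66. The SD-101 arrays other than replicate 2 lay below all 4 SD-101+anti-PD-1+a-CD4 arrays, and Saline-CTRL spanned nearly the whole range. Fdft1 was 0.56 higher under SD-101+anti-PD-1+a-CD4 than in SD-101 (95% interval 0.06 to 1.06), with a limma adjusted p of 0.248.

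Sqle, squalene epoxidase, is a rate-controlling enzyme of the sterol branch. It measured 7.58, 8.80, 7.68 and 7.52 under SD-101+anti-PD-1+a-CD4 and 7.80, 7.91, 7.27, 7.71 and 7.22 under SD-101+anti-PD-1. SD-101 ran from 6.52 through a median of 6.97 to 8.17, and Saline-CTRL measured 7.97, 8.22, 6.60, 8.03 and 6.11. Saline-CTRL split into 3 arrays near 8 and 2 under 7, a gap wider than any difference between group means. Sqle was 0.77 higher under SD-101+anti-PD-1+a-CD4 than in SD-101 (95% interval -0.07 to 1.61, limma adjusted p = 0.343) and 0.51 higher than in Saline-CTRL (95% interval -0.36 to 1.38, limma adjusted p = 0.544). SD-101+anti-PD-1+a-CD4 replicate 2 was far above the other 3 arrays of its group.

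Lss closes the sterol ring to give lanosterol. It measured 4.78, 6.08, 5.15 and 4.93 under SD-101+anti-PD-1+a-CD4 and 5.60, 5.38, 5.79, 5.49 and 5.00 under SD-101+anti-PD-1. SD-101 ran from 3.27 through a median of 4.61 to 5.59, the widest range of the gene, and Saline-CTRL measured 5.73, 6.29, 4.34, 4.90 and 4.44. The SD-101 arrays other than replicate 2 lay below all 5 SD-101+anti-PD-1 arrays. Lss was 0.94 higher under SD-101+anti-PD-1 than in SD-101 (95% interval 0.14 to 1.73), which the limma test did not call at an adjusted p of 0.180.

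Cyp51, the lanosterol demethylase, had the largest difference between group means of the 8 genes. It measured 6.58, 7.35, 6.82 and 6.76 under SD-101+anti-PD-1+a-CD4 and 6.65, 7.14, 6.42, 6.60 and 5.75 under SD-101+anti-PD-1. SD-101 ran from 5.44 through a median of 5.85 to 6.80, and Saline-CTRL measured 6.48, 6.99, 5.18, 6.35 and 5.18. All 4 SD-101+anti-PD-1+a-CD4 arrays lay above 5 of the 6 SD-101 arrays and above 4 of the 5 Saline-CTRL arrays, replicate 2 of each being the exception. Cyp51 was 0.97 higher under SD-101+anti-PD-1+a-CD4 than in SD-101 (95% interval 0.25 to 1.69), with a limma adjusted p of 0.164. It was 0.84 higher than in Saline-CTRL (95% interval 0.09 to 1.59), with a limma adjusted p of 0.178. Neither was called.

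Insig1, the regulator among the 8, measured 5.97, 6.76, 6.48 and 6.35 under SD-101+anti-PD-1+a-CD4 and 6.95, 6.32, 6.73, 6.79 and 6.57 under SD-101+anti-PD-1. SD-101 ran from 5.99 through a median of 6.18 to 6.79, and Saline-CTRL measured 6.79, 7.56, 6.21, 6.36 and 5.82. Unlike the enzymes Cyp51, Sqle, Fdps, Fdft1 and Idi1, its highest group mean was that of SD-101+anti-PD-1, at 6.67 ± 0.24 (SD, n = 5), and SD-101+anti-PD-1+a-CD4 averaged 6.39 ± 0.33 (SD, n = 4). Lss had the same order of those 2 groups. Whether Insig1 and the enzymes differed in this was not tested. The difference in Insig1 between them was -0.28 (95% interval -0.84 to 0.27, limma adjusted p = 0.650).

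Set side by side over the comparisons, the 7 genes other than Hmgcs1 had small differences of 1 direction in most, and none was called. In SD-101 against Saline-CTRL all 7 had negative log2 fold changes, from -0.63 to -0.13 with a median of -0.26, and limma adjusted p of 0.719 or more. Of all genes, 0.333% were called there, and the median over all genes was 0.01. Under SD-101+anti-PD-1 against Saline-CTRL all 7 were positive, from 0.13 to 0.48 with a median of 0.23 (limma adjusted p of 0.504 or more), beside a median of 0.03 over all genes and 5.63% of all genes called. Under SD-101+anti-PD-1+a-CD4 against Saline-CTRL 6 of 7 were positive, from -0.16 to 0.84 with a median of 0.36 (limma adjusted p of 0.178 or more), where 7.12% of all genes were called. Of all 17097 genes, 7996 were negative in SD-101 against Saline-CTRL. Positive ones were 9664 under SD-101+anti-PD-1 and 9692 under SD-101+anti-PD-1+a-CD4. These 3 comparisons share the same 5 Saline-CTRL arrays, so their directions are not independent. Nor are the 7 genes, whose pairwise Pearson r within groups had a median of 0.82, so a shared sign is not 7 separate observations. The common directions also changed with the fit. In SD-101 against Saline-CTRL, Fdft1 was 0.067 and Cyp51 0.11 without Saline-CTRL replicate 2, and with the 4 cell type means as covariates Sqle, Fdps, Lss, Cyp51 and Insig1 were positive, from 0.014 to 0.62. Under SD-101+anti-PD-1 against Saline-CTRL, Sqle was just below 0 without Saline-CTRL replicate 3 and at -0.12 without replicate 5, and Insig1 was -0.056 without replicate 5 and -0.011 with arrays centred on their median. With the covariates Idi1, Fdps, Fdft1 and Insig1 were negative there, from -0.56 to -0.000203. Under SD-101+anti-PD-1+a-CD4 against Saline-CTRL, Lss was negative without replicate 2 from SD-101+anti-PD-1+a-CD4 (-0.19) or without Saline-CTRL replicates 3 or 5, and Insig1 was 0.10 without Saline-CTRL replicate 2.

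Against SD-101, the fold changes of the 7 were larger. Under SD-101+anti-PD-1 against SD-101 all 7 were positive, from 0.36 to 0.94 with a median of 0.45, and limma adjusted p ranged from 0.180 to 0.598, with 4.77% of all genes called. With the 4 cell type means as covariates 5 of these 7 were negative, namely Idi1 (-0.30), Fdps (-0.21), Fdft1 (-0.25), Lss (-0.39) and Insig1 (-0.50). The endothelial mean, 1 of these covariates, was 5.13 to 6.22 under SD-101+anti-PD-1 and 7.10 to 9.56 in SD-101, without overlap. That fit therefore separates treatment from covariate poorly, and nothing is concluded from its signs. Under SD-101+anti-PD-1+a-CD4 against SD-101, a comparison added after the data were seen, all 7 were again positive, from 0.15 to 0.97 with a median of 0.72, and limma adjusted p ranged from 0.164 to 0.812, with 0.983% of all genes called. With the covariates Lss (-0.54) and Insig1 (-0.46) were negative. Of all 17097 genes, 8869 were positive under SD-101+anti-PD-1 against SD-101 and 9440 under SD-101+anti-PD-1+a-CD4 against SD-101. Both comparisons share the 6 SD-101 arrays, in which every one of the 7 genes had its lowest group mean. As the 7 genes moved together across arrays, their shared sign is not 7 separate observations here either. Between SD-101+anti-PD-1+a-CD4 and SD-101+anti-PD-1, 5 of 7 were positive, from -0.28 to 0.37, and limma adjusted p was 0.650 or more, with 2.13% of all genes called. No member was called in the last 3 comparisons. At an unadjusted limma p under 0.05 there were 0 members in SD-101 against Saline-CTRL and 2 under SD-101+anti-PD-1 against SD-101. There were 4 under SD-101+anti-PD-1+a-CD4 against SD-101, Hmgcs1 among them, and 0 under SD-101+anti-PD-1+a-CD4 against SD-101+anti-PD-1. Against Saline-CTRL there were 1 under SD-101+anti-PD-1 (Hmgcs1) and 2 under SD-101+anti-PD-1+a-CD4 (Hmgcs1 and Cyp51). Of all 17097 genes, 1414, 3122, 2846, 3060, 3183 and 3560 passed that unadjusted threshold in these comparisons, in the order given. Whether the members exceeded those shares was not tested.

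**Figure D2:**
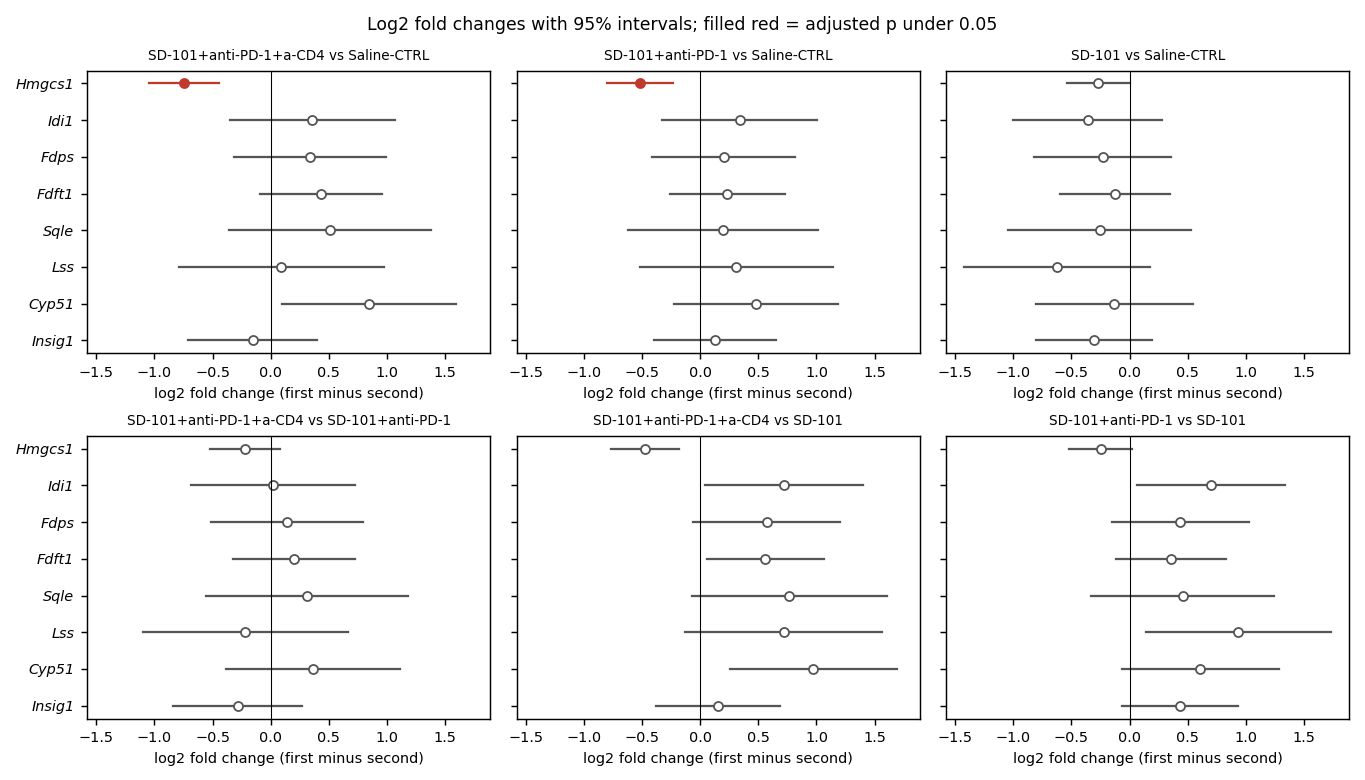
Log2 fold change (x axis, first named group minus second) of each gene (y axis) in the 6 comparisons, with the 95% interval from limma as a line. Filled red points passed the adjusted threshold of 0.05, and these are Hmgcs1 at -0.74 and -0.52 against Saline-CTRL. The other 7 genes lie right of 0 in all points of both comparisons with SD-101 as the second group, and the lower ends of their intervals run from -0.38 to 0.25.

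The spread between arrays of a group, rather than the groups, held most of the variation of the 7 genes. Group means accounted for 17.2% to 35.6% of their variance over the 20 arrays, against 65.7% for Hmgcs1 and a median of 23.0% over all genes. Their residual SD was 0.39 to 0.67 log2, compared with a median of 0.23 over all genes and 0.26 over genes with a mean of at least 5. For Hmgcs1 it was 0.21.

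The same arrays were high or low for most of the genes. SD-101+anti-PD-1+a-CD4 replicate 2 was the highest of its group for 7 of 7, and SD-101+anti-PD-1 replicate 5 was the lowest of its group for 6 of 7. SD-101 replicate 2 was the highest of its group for 7 of 7, and Saline-CTRL replicate 2 was the highest of its group for all 8. Saline-CTRL replicate 5 was the lowest for 5 of 7 and replicate 3 for the other 2. Pairwise Pearson r among the 7 genes was 0.60 to 0.96 over the 20 arrays, with a median of 0.84 over 21 pairs. After subtraction of group means it was 0.69 to 0.95, with a median of 0.82. The closest pair was Sqle and Fdps at 0.96, and the most distant was Cyp51 and Insig1 at 0.60. These points share arrays and their normalization, and the values describe these arrays only.

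The r of the Hmgcs1 probe set with the other 7 was -0.49 to 0.11 over all arrays and -0.15 to 0.23 within groups. As this probe set was not shown to measure above background, its r says nothing of whether the gene moved with the others.

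**Figure D3:**
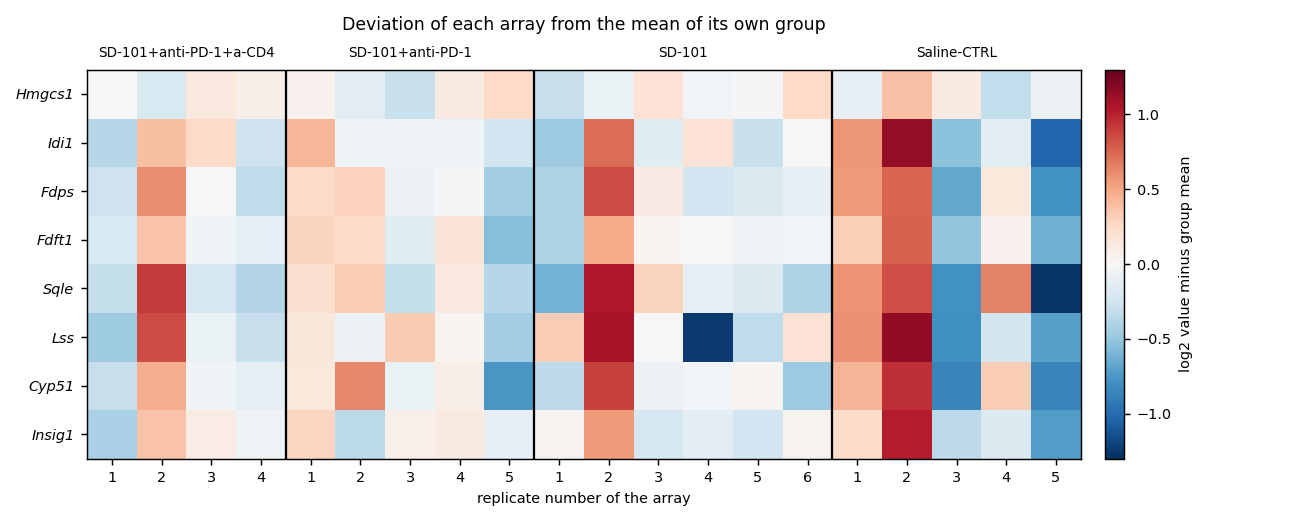
Deviation of each array (columns, by replicate number within the 4 groups) from the mean of its own group, in log2, for the 8 genes (rows). Columns are mostly of 1 colour below the row of Hmgcs1, as in replicate 2 under SD-101+anti-PD-1+a-CD4, SD-101 and Saline-CTRL, which was the highest of its group for 7 of 7 genes in each.

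Genes with several probe sets gave a check of the measurement. The second probe set of Idi1 had a Pearson r of 0.88 and a Spearman rho of 0.91 with the chosen one over the 20 arrays, and one of the other 2 for Cyp51 had an r of 0.95 and a rho of 0.96. The remaining Cyp51 probe set, which did not exceed 2.84 on any array, had an r of 0.37 and a rho of 0.33. None of these 3 probe sets was called in any comparison by limma with p-values adjusted over probe sets. Under SD-101+anti-PD-1+a-CD4 against SD-101 the log2 fold changes of the 2 well-correlated probe sets were 0.88 for Idi1 and 0.84 for Cyp51, with adjusted p of 0.151 and 0.169.

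The mean of the 8 centred log2 values on an array was used to find genes of like pattern among 8543 other genes whose mean was at or above the median of all genes. Over the 20 arrays the nearest was Msmo1, a C4-methylsterol oxidase of the same route, with a Pearson r of 0.93. Next came Rtkn at 0.92, Paip1, Fzd7 and Pls3 at 0.91, Cyb5b, Dstn and Prkci at 0.90, and Cnpy2 and Sdc4 at 0.89. Within groups the order was Paip1 at 0.93, Nectin2, Cyb5b, Rtkn and Azin1 at 0.92, and Fzd7, Rbm47, Msmo1, Me1 and Plxnb2 at 0.91. Msmo1 was the only gene of both sets that is itself a sterol enzyme of the lists used here. Me1, malic enzyme, supplies NADPH for lipid synthesis.

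Scores of other cell types moved with this mean across arrays. Its Pearson r with the mean of 7 airway epithelial markers was 0.67 (Spearman rho 0.68), and 0.75 within groups. With the mean of 6 fibroblast markers r was 0.69 (rho 0.64), with that of 7 alveolar epithelial markers 0.48 (rho 0.55), and with that of 9 T cell markers -0.59 (rho -0.62). Without the 2 arrays farthest from the median of each score, these 4 were 0.54, 0.62, 0.75 and -0.47. With the mean of 4 NK cell markers, of which 2 averaged at least 5, r was -0.68 (rho -0.69, and -0.58 without 2 arrays). With 11 cell cycle genes, which are not a cell type, r was 0.30 (rho 0.22) and, without the 2 farthest arrays, -0.00128. All are descriptions over 20 arrays normalized together.

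The marker levels differed between groups as well, and the endothelial markers differed most. Their mean ran from 6.45 to 8.02 under SD-101+anti-PD-1+a-CD4, from 5.13 to 6.22 under SD-101+anti-PD-1, from 7.10 to 9.56 in SD-101 and from 8.06 to 10.17 in Saline-CTRL. All 8 fell under SD-101+anti-PD-1+a-CD4 (median -2.11) and under SD-101+anti-PD-1 (median -3.61) against Saline-CTRL, and all 8 fell under SD-101+anti-PD-1 against SD-101 (median -3.04). Of the 11 cell cycle genes, 8 rose under SD-101+anti-PD-1+a-CD4 against Saline-CTRL (median 1.70) and 1 rose under SD-101+anti-PD-1. The airway epithelial mean ran from 8.55 to 8.995 under SD-101+anti-PD-1+a-CD4, from 9.50 to 9.96 under SD-101+anti-PD-1, from 7.72 to 9.30 in SD-101 and from 7.01 to 9.24 in Saline-CTRL. SD-101+anti-PD-1 thus lay above all arrays of the other groups. The fibroblast mean ran from 6.73 to 7.62 under SD-101+anti-PD-1+a-CD4, from 7.45 to 8.08 under SD-101+anti-PD-1, from 6.43 to 7.40 in SD-101 and from 5.77 to 7.64 in Saline-CTRL. The T cell mean ran from 8.97 to 10.59 under SD-101+anti-PD-1+a-CD4, from 9.96 to 10.37 under SD-101+anti-PD-1, from 9.77 to 10.45 in SD-101 and from 9.31 to 10.43 in Saline-CTRL. The arrays of lowest T cell mean, SD-101+anti-PD-1+a-CD4 replicate 2 and Saline-CTRL replicate 1, were above their group mean for 7 of 7 genes. Saline-CTRL replicate 2, the highest of its group for all 8 genes, had a T cell mean of 10.02, above its group mean of 9.94. Of the airway markers, 1 of 7 rose under SD-101+anti-PD-1 against Saline-CTRL and 2 of 7 rose against SD-101. Of the fibroblast markers, 3 of 6 rose under SD-101+anti-PD-1 against Saline-CTRL and 1 of 6 rose against SD-101. Under SD-101+anti-PD-1+a-CD4 against Saline-CTRL 1 of 6 rose and 1 fell. Of all 17097 genes, 594 rose and 368 fell under SD-101+anti-PD-1 against Saline-CTRL, and 602 rose and 214 fell against SD-101. Under SD-101+anti-PD-1+a-CD4 against Saline-CTRL 700 rose and 518 fell. The part of these cell types in the levels of the 8 genes was not tested.

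**Figure D4:**
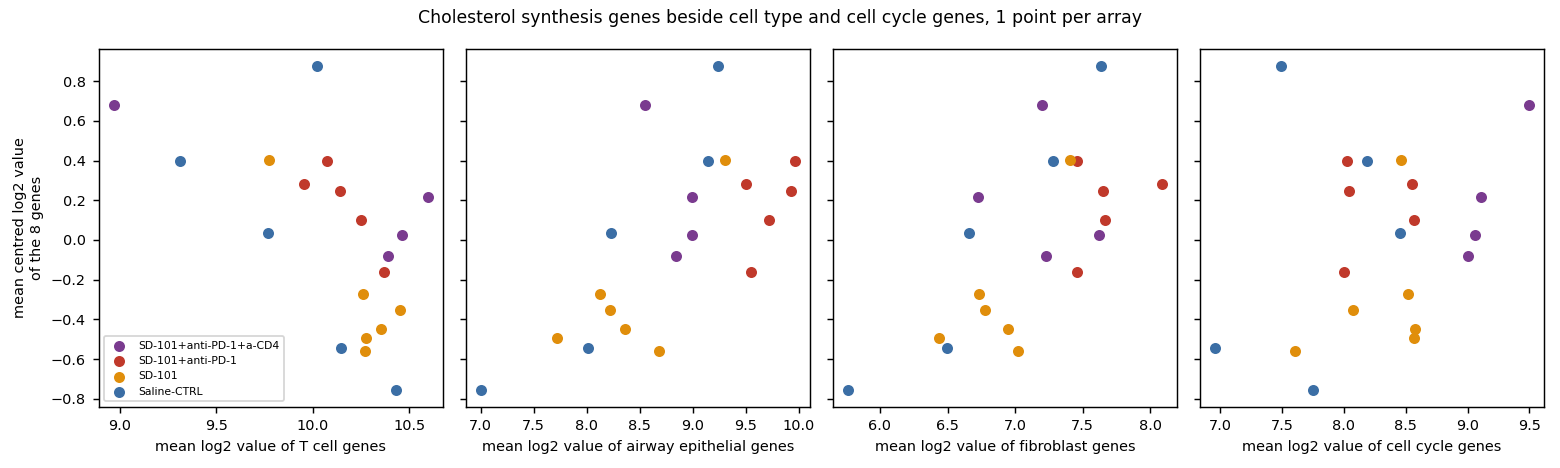
Mean centred log2 value of the 8 genes (y axis) against the mean log2 value of T cell, airway epithelial, fibroblast and cell cycle genes (x axes), 1 point per array, coloured by group. Arrays with higher airway epithelial or fibroblast values tend to sit higher (r of 0.67 and 0.69), and arrays with higher T cell values lower (r of -0.59).

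The neighbouring steps of the route gave 1 called gene. Of 9 measured among 13 listed other enzymes of mevalonate and sterol synthesis, 1 rose and 0 fell under SD-101+anti-PD-1+a-CD4 and likewise under SD-101+anti-PD-1, each against Saline-CTRL, with none called in the other comparisons. Of all 17097 genes, 700 rose in the first of these comparisons and 594 in the second. The called enzyme gene was Ebp, the sterol isomerase late in the route. It averaged 8.48 ± 0.34 under SD-101+anti-PD-1+a-CD4 (SD, n = 4) and 8.59 ± 0.18 under SD-101+anti-PD-1 (SD, n = 5), against 8.06 ± 0.04 in Saline-CTRL (SD, n = 5). It rose by 0.42 (limma adjusted p = 0.0420) and by 0.53 (limma adjusted p = 0.00913). In SD-101 it averaged 8.38 ± 0.07 (SD, n = 6), 0.32 above Saline-CTRL and not called (limma adjusted p = 0.406). SD-101+anti-PD-1+a-CD4 and SD-101+anti-PD-1 were 0.11 and 0.21 above SD-101 (limma adjusted p = 0.700 and 0.334). The SD-101+anti-PD-1 arrays did not overlap Saline-CTRL, where 3.36% of all genes did not overlap in that direction. The 6 SD-101 arrays also lay above all Saline-CTRL arrays, so this separation was not particular to the combined treatments. Under SD-101+anti-PD-1+a-CD4 3 of 4 arrays lay above all Saline-CTRL arrays. For SD-101 the share of all genes without overlap is not given here. The call of Ebp under SD-101+anti-PD-1+a-CD4 held in 1 of 9 fits with 1 array left out, that without replicate 2 of this group, and was lost in the others at adjusted p of 0.0602 to 0.133. Under SD-101+anti-PD-1 it held in 10 of 10 such fits. With arrays centred on their median the log2 fold changes were 0.34 under SD-101+anti-PD-1+a-CD4 and 0.39 under SD-101+anti-PD-1, and neither was called (limma adjusted p = 0.258 and 0.139). With marker means of 4 other cell types as covariates they were 0.31 and 0.16 (limma adjusted p = 0.545 and 0.891), in a fit that called 4 and 0 of all genes. Msmo1, whose pattern was nearest to that of the 8, had a log2 fold change of 0.18 and of 0.11 in the same 2 comparisons, with limma adjusted p of 0.805 and 0.908.

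The genes that sense sterol showed no call. None of the 6 measured SREBP regulators passed the limma test in any comparison, with adjusted p of 0.268 or more. Srebf2, which encodes SREBP2 itself, averaged 6.98 ± 0.30 under SD-101+anti-PD-1+a-CD4 (SD, n = 4), 7.08 ± 0.11 under SD-101+anti-PD-1 (SD, n = 5), 6.89 ± 0.17 in SD-101 (SD, n = 6) and 7.08 ± 0.34 in Saline-CTRL (SD, n = 5). Insig2, the homologue of Insig1, was 0.68 higher under SD-101+anti-PD-1+a-CD4 than in SD-101, with a limma adjusted p of 0.268. None of the 6 measured oxysterol and efflux genes was called either. Among them Ch25h, which makes an oxysterol, a suppressor of SREBP processing, had limma adjusted p of 0.733 or more.

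Uptake and other SREBP2 targets outside synthesis had 2 called genes among 5 measured of 7 listed. Lpin1, a phosphatidate phosphatase, fell by 0.57 under SD-101+anti-PD-1+a-CD4 against Saline-CTRL, to 5.45 ± 0.14 (SD, n = 4) against 6.02 ± 0.25 (SD, n = 5), with a limma adjusted p of 0.0215. Npc2, a lysosomal cholesterol carrier, rose by 0.58 under SD-101+anti-PD-1 against SD-101, to 12.48 ± 0.14 (SD, n = 5) against 11.90 ± 0.16 (SD, n = 6), with a limma adjusted p of 0.0363. Of all 17097 genes, 518 fell in the comparison that called Lpin1 and 602 rose in that which called Npc2. Lpin1 lost its call without replicate 1 or 2 from SD-101+anti-PD-1+a-CD4 (adjusted p of 0.0560 and 0.0606). Npc2 kept its call in 3 of 11 fits with 1 array left out, those without SD-101 replicates 1 and 2 or SD-101+anti-PD-1 replicate 5, and lost it in the others at adjusted p of 0.0553 to 0.106. The call of Npc2 was also lost with arrays centred on their median (0.47, limma adjusted p = 0.0732) and narrowly with a block on replicate number (0.59, limma adjusted p = 0.0534). With marker means of 4 other cell types as covariates Lpin1 was -0.83 (limma adjusted p = 0.182), where 4 of all genes were called, and Npc2 was 0.080 (limma adjusted p = 0.997), where 0 were called. The isoprenoid branch, which uses the same precursors for prenylation, had 0 of 6 measured genes called in every comparison, with limma adjusted p of 0.225 or more.

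Fatty acid synthesis genes, a list mainly under the related factor SREBP1, had the largest called rises of the lists. Of 10 measured, 2 rose under SD-101+anti-PD-1 against Saline-CTRL, 2 rose under SD-101+anti-PD-1 against SD-101 and none was called in the other comparisons. Of all 17097 genes, 594 rose in the first comparison and 602 in the second. Fasn, fatty acid synthase, averaged 9.98 ± 0.27 under SD-101+anti-PD-1 (SD, n = 5), 8.70 ± 0.48 in SD-101 (SD, n = 6) and 8.70 ± 0.95 in Saline-CTRL (SD, n = 5). It rose by 1.28 in both comparisons, with limma adjusted p of 0.0310 against SD-101 and 0.0318 against Saline-CTRL. Scd1, a stearoyl-CoA desaturase, rose by 1.99 against Saline-CTRL (limma adjusted p = 0.0473), and Fads1, a fatty acid desaturase, rose by 0.89 against SD-101 (limma adjusted p = 0.0481). Alveolar type 2 cells, which make surfactant lipid, also synthesize fatty acids. The alveolar epithelial marker mean was 9.01 to 10.51 under SD-101+anti-PD-1+a-CD4, 10.64 to 11.15 under SD-101+anti-PD-1, 9.22 to 10.29 in SD-101 and 9.38 to 11.22 in Saline-CTRL. None of its 7 markers was called in any comparison. With the alveolar epithelial, endothelial, macrophage and B cell means as covariates none of these rises was called, in fits that called 0 of all genes. Fasn then had log2 fold changes of 0.44 against Saline-CTRL (limma adjusted p = 0.819) and -0.16 against SD-101 (limma adjusted p = 0.999). The endothelial mean under SD-101+anti-PD-1 overlapped neither Saline-CTRL nor SD-101. Those fits therefore separate treatment from covariate poorly, and nothing about alveolar cells is concluded from them. The part of alveolar cells in these rises was not tested.

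The calls of fatty acid genes lay close to the threshold and were lost without any 1 of many arrays. Their log2 fold changes in those fits stayed above 0. Fasn ran from 1.10 to 1.59 against Saline-CTRL and from 1.14 to 1.42 against SD-101. Scd1 ran from 1.61 to 2.44 against Saline-CTRL, and Fads1 from 0.79 to 1.03 against SD-101. With 1 array left out, Fasn kept its call in 3 of 10 fits against Saline-CTRL, those without Saline-CTRL replicates 1 and 2 or SD-101+anti-PD-1 replicate 5, and lost it in the others at adjusted p of 0.0599 to 0.106. Against SD-101 it kept its call in 4 of 11 fits, those without SD-101 replicates 1, 2 and 6 or SD-101+anti-PD-1 replicate 5, and lost it in the others at 0.0560 to 0.0949. Scd1 kept its call in 2 of 10, those without Saline-CTRL replicates 1 and 2, and otherwise had 0.0530 to 0.139. Fads1 kept its call in 2 of 11, those without SD-101 replicate 2 or SD-101+anti-PD-1 replicate 5, and otherwise had 0.0530 to 0.131. Over the mean of all its probe sets Fads1 had a log2 fold change of 0.40 (limma adjusted p = 0.183).

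Across arrays, the mean of the 8 genes ran with the fatty acid list (Pearson r 0.82, rho 0.81, and 0.76 without the 2 farthest arrays) about as it did with the other sterol enzymes (r 0.83, rho 0.81, and 0.77). With the isoprenoid branch r was 0.20 and with the oxysterol and efflux genes -0.12. The group pattern of the lists differed in the values, with the fatty acid mean at 8.21 ± 0.12 under SD-101+anti-PD-1+a-CD4 (SD, n = 4), 8.56 ± 0.24 under SD-101+anti-PD-1 (SD, n = 5), 7.87 ± 0.38 in SD-101 (SD, n = 6) and 7.89 ± 0.62 in Saline-CTRL (SD, n = 5). The median fold change of the fatty acid list under SD-101+anti-PD-1 against SD-101 was 0.77, beside 0.24 for the other sterol enzymes and 0.01 over all genes.

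**Figure D5:**
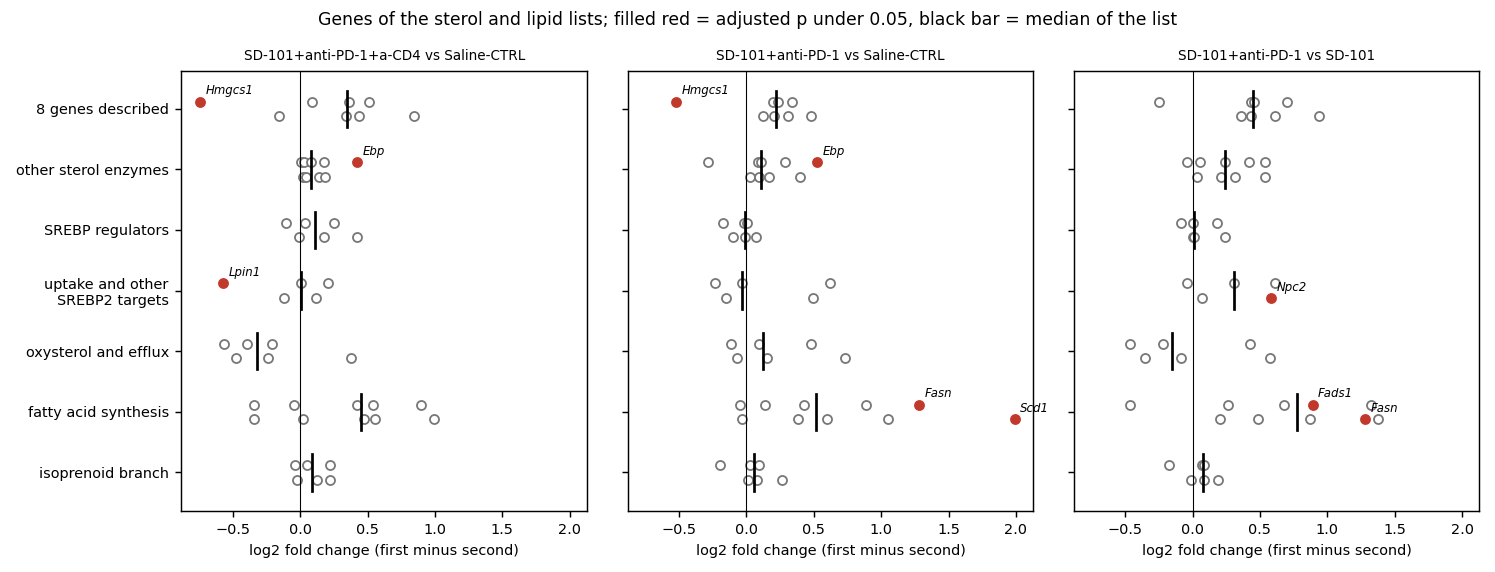
Log2 fold change (x axis, first named group minus second) of each measured gene in 7 gene lists (y axis) in 3 comparisons. Filled red points passed the adjusted threshold of 0.05 and carry their names, and the black bar is the list's median. The called genes are few in each list, with Scd1 at 1.99 and Fasn at 1.28 farthest to the right.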

How the data were processed

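The authors deposited log2 expression values per Affymetrix probe set. Affy, RMA and limma and the build mm8 are named per the submitters' processing notes, without roles or order, and the values were used as deposited. Of 45141 probe sets, 28898 were listed with 1 gene symbol, 551 with several and 15692 were not listed with a gene. RefSeq identifiers matched 28689 of them and changed 0 symbols. Taking the probe set of highest mean for each gene left 17097 genes, none filtered on level.

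One limma model (version 3.58.1, R 4.3.3) held the means of the 4 groups and no other term. In all, 6 comparisons were taken, the last of which, SD-101+anti-PD-1+a-CD4 against SD-101, was added after the data were seen. A gene was called, and "rose" or "fell" used, at a Benjamini-Hochberg adjusted 2-sided p under 0.05 over all genes, and intervals are 95% intervals of that fit. Exact permutation tests of 2 groups were 2-sided. Arrays carry no read depth, and their number limits the precision. The fit was tested on simulated data.

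The 8 genes and the gene lists were chosen with earlier results of these data known. Named genes were the 8, every called gene of the pathway lists, Srebf2 and Ch25h, up to 4 further genes of smallest p in each list, and the 10 genes most like the 8 over arrays and within groups. Not every gene the rule allows is named. The score of a list on an array averages the log2 values of its measured genes, and list members without a probe set of 1 symbol were not analysed here. No 2 arrays held the same values. Replicate numbers were not used to pair the samples. Same-numbered pairs of arrays had correlations of deviations from -0.39 to 0.41, and 8 of 24 were above 0.1. Arrays of different numbers were not compared, so these values cannot show whether the numbers pair the samples. Alternatives changed the probe set, the unit of the fit, the scaling, the level filter, the variance model, array weights, the groups fitted, a block on replicate number, 4 other cell type scores (endothelial, alveolar epithelial, macrophage and B cell) as covariates, and each array in turn. Of the measured markers in these scores, 2 of 9 macrophage and 3 of 6 B cell genes averaged at least 5. Dropping the 2 arrays with the lowest T cell score was added after the data were seen.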

Additional observations from a re-analysis of the deposited data

Results flagged for a closer look

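In 32 combinations of a gene and a group, 4 had 1 array far from the others by Dixon's criterion at 95%, where chance gives about 1 in 20 per combination. The combinations are not independent, as 7 of the 8 genes moved together across arrays. Whether 4 is more than chance gives was not tested. Under SD-101+anti-PD-1+a-CD4, Sqle was 8.80 on replicate 2, and the next array was at 7.68. Under SD-101+anti-PD-1, Idi1 was 8.53 on replicate 1, and the next was at 8.04. In SD-101, Cyp51 was 6.80 and Insig1 was 6.79 on replicate 2, against 5.94 and 6.29 on the next arrays. Replicate 2 of SD-101 and SD-101+anti-PD-1+a-CD4 replicate 2 were each the highest of their group for 7 of the 8 genes. The T cell marker mean on SD-101+anti-PD-1+a-CD4 replicate 2 was 8.97, the lowest of the 20 arrays, and that of SD-101 replicate 2 was 9.77, the lowest of its group. Saline-CTRL replicate 2, the highest of its group for all 8 genes, had a T cell mean of 10.02, above its group mean of 9.94. The part of the T cell mean in these values was not tested.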

How the results depend on the processing

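Member fold changes kept their direction and side of the threshold in 948 alternative fits, turned sign in 42, lost a call in 8 and gained one in 4, and those of the 8 other pathway genes tried did so in 153, 6, 72 and 0. The number of arrays and the wide spread in Saline-CTRL limit what could be called. With 1 array left out, genes called by limma were 665 to 1234 comparing SD-101+anti-PD-1+a-CD4 with Saline-CTRL, 553 to 1531 comparing SD-101+anti-PD-1 with Saline-CTRL, 25 to 64 comparing SD-101 with Saline-CTRL, 73 to 488 comparing SD-101+anti-PD-1+a-CD4 with SD-101+anti-PD-1, 35 to 220 comparing SD-101+anti-PD-1+a-CD4 with SD-101, 317 to 1081 comparing SD-101+anti-PD-1 with SD-101, and 987 to 1856 for the F test. The 8 genes called under SD-101+anti-PD-1 against Saline-CTRL were 0 to 1, and Hmgcs1 there ran from -0.60 to -0.42. Log2 fold changes that crossed 0 without 1 of Saline-CTRL replicates 2, 3 or 5, SD-101+anti-PD-1 replicate 5, or SD-101+anti-PD-1+a-CD4 replicates 2 or 3 were, under SD-101+anti-PD-1+a-CD4 against Saline-CTRL, Lss (-0.19 to 0.38), Insig1 (-0.34 to 0.10) and Msmo1 (-0.031 to 0.41). Under SD-101+anti-PD-1 against Saline-CTRL they were Sqle (-0.12 to 0.41), Insig1 (-0.056 to 0.38) and Msmo1 (-0.090 to 0.33). In SD-101 against Saline-CTRL they were Cyp51 (-0.34 to 0.11) and Fdft1 (-0.28 to 0.067), and under SD-101+anti-PD-1+a-CD4 against SD-101+anti-PD-1 they were Idi1 (-0.11 to 0.14) and Fdps (-0.066 to 0.25).

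Centring arrays on their median moved the median of all genes to -0.11 both under SD-101+anti-PD-1 against Saline-CTRL and against SD-101. Genes rising and falling were then 346 and 534, against 594 and 368 as deposited, in the first, and 407 and 269, against 602 and 214, in the second. Comparing SD-101+anti-PD-1+a-CD4 with Saline-CTRL, they were 357 and 534 when centred, 555 and 609 after quantile normalization, and 700 and 518 as deposited. Centring left 36 genes in SD-101 against Saline-CTRL and 68 under SD-101+anti-PD-1+a-CD4 against SD-101, and Insig1 at -0.011 under SD-101+anti-PD-1 against Saline-CTRL. Lss was -0.015 after quantile normalization under SD-101+anti-PD-1+a-CD4 against Saline-CTRL. Centred, Msmo1 was -0.032 under SD-101+anti-PD-1 against Saline-CTRL. A mean of at least 5 removed Hmgcs1, which left 0 of the 8 genes called in both comparisons where it had been, and 0 in the F test, with 1963, 2578 and 2856 genes at an unadjusted limma p under 0.05. Genes called were then 599 under SD-101+anti-PD-1 against Saline-CTRL, 424 against SD-101, and 132 under SD-101+anti-PD-1+a-CD4 against SD-101+anti-PD-1.

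With array weights, 3 of the 8 genes were called under SD-101+anti-PD-1 against SD-101, namely Lss (1.07, limma adjusted p = 0.0149), Idi1 (0.86, limma adjusted p = 0.0176) and Insig1 (0.59, limma adjusted p = 0.0362). Hmgcs1 was called under SD-101+anti-PD-1+a-CD4 against SD-101 (-0.45, limma adjusted p = 0.0414), which made 1. Genes called were 119 in SD-101 and 1953 under SD-101+anti-PD-1, each against Saline-CTRL, 2760 under SD-101+anti-PD-1 and 603 under SD-101+anti-PD-1+a-CD4, both against SD-101, 1246 under SD-101+anti-PD-1+a-CD4 against SD-101+anti-PD-1, and 3014 in the F test. Lss was then -0.032 under SD-101+anti-PD-1+a-CD4 against Saline-CTRL, and Idi1 and Fdps were -0.18 and -0.10 against SD-101+anti-PD-1. Fitting only the groups compared gave 476 genes under SD-101+anti-PD-1+a-CD4 and 10 in SD-101, each against Saline-CTRL, and 1332 under SD-101+anti-PD-1 and 56 under SD-101+anti-PD-1+a-CD4, both against SD-101. Hmgcs1 was then not called under SD-101+anti-PD-1 against Saline-CTRL (limma adjusted p = 0.0846), which left 0 of the 8 genes with 3107 genes at an unadjusted p under 0.05. It also ended the calls of Fasn, Scd1, Ebp and Lpin1 against Saline-CTRL (limma adjusted p = 0.103, 0.112, 0.188 and 0.0691), that of Ebp only under SD-101+anti-PD-1+a-CD4. Calls were also lost for Scd1 over the mean of its probe sets, with probe sets fitted separately and with arrays centred (0.0531, 0.0532 and 0.0504), for Fads1 with probe sets fitted separately and after quantile normalization (0.0564 and 0.0515), and for Ebp under SD-101+anti-PD-1+a-CD4 after quantile normalization (0.0577). With a replicate block, genes called under SD-101+anti-PD-1+a-CD4 against SD-101+anti-PD-1 were 242, Idi1 was -0.11 there, Lss was -0.029 against Saline-CTRL, and no call among the 8 genes changed, while that of Npc2 was lost (limma adjusted p = 0.0534). Whether the numbers pair the samples is not known.

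With 4 cell type scores as covariates, 0 of the 8 genes were called in any comparison or in the F test. The endothelial score of SD-101+anti-PD-1 overlapped that of no other group, so the fit separates that treatment from the covariate poorly. Hmgcs1 was -0.98 (limma adjusted p = 0.119) under SD-101+anti-PD-1+a-CD4 and -1.02 (limma adjusted p = 0.480) under SD-101+anti-PD-1, each against Saline-CTRL. Genes called were 4, 0 and 0 under SD-101+anti-PD-1+a-CD4, SD-101+anti-PD-1 and SD-101, each against Saline-CTRL, 4 under SD-101+anti-PD-1+a-CD4 against SD-101+anti-PD-1, 0 in each comparison against SD-101, and 27 in the F test. At an unadjusted limma p under 0.05 there were 1908, 1296 and 910 genes in the first 3, 1578 in the fourth, 980 under SD-101+anti-PD-1 and 1027 under SD-101+anti-PD-1+a-CD4, both against SD-101, and 1773 in the F test. Signs that turned were, under SD-101+anti-PD-1+a-CD4 against Saline-CTRL, Idi1 (-0.060), and under SD-101+anti-PD-1 against Saline-CTRL, Idi1 (-0.56), Fdps (-0.000203), Fdft1 (-0.26) and Insig1 (-0.49). In SD-101 against Saline-CTRL they were Sqle (0.19), Fdps (0.21), Lss (0.62), Cyp51 (0.12) and Insig1 (0.014). Under SD-101+anti-PD-1+a-CD4 they were Hmgcs1 (0.040) and Insig1 (0.036) against SD-101+anti-PD-1, and Lss (-0.54) and Insig1 (-0.46) against SD-101. Under SD-101+anti-PD-1 against SD-101 they were Idi1 (-0.30), Fdps (-0.21), Fdft1 (-0.25), Lss (-0.39), Insig1 (-0.50) and Fasn (-0.16). Dropping the 2 arrays with the lowest T cell score, chosen after seeing the data, gave 62 genes under SD-101+anti-PD-1+a-CD4 against SD-101+anti-PD-1 and 51 against SD-101. Lss was then -0.043 and Lpin1 not called (limma adjusted p = 0.0759) against Saline-CTRL, and Idi1 and Fdps were -0.11 and -0.066 against SD-101+anti-PD-1. The cause of these changes was not tested.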
